A study of Homo sapiens with 6 samples.

Results

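The BCL2 family decides whether the outer mitochondrial membrane of a cell is breached, the step that commits a cell to apoptosis. Its expression was examined in HEK293 cells (an established line of human embryonic kidney origin) after transfection with a BAHD1 siRNA. The members were 10 genes, namely MCL1, BCL2, BCL2L1, BAX, BAK1, BCL2L11, BID, BBC3, PMAIP1 and BAD. They were found by the gene symbol of each probe set in the platform annotation, which gave 33 of 54613 non-control probe sets. Of these, 32 were annotated with a member alone, and the only probe set of BBC3 was annotated jointly with the microRNA genes MIR3190 and MIR3191. A total of 27 of the 33, with at least 1 for each of the 10 genes, were bright enough to be tested.

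The study compared 3 biological replicates of HEK293 cells transfected for 72 h with a control siRNA and 3 transfected for 72 h with a BAHD1 siRNA. Both groups were grown in serum-supplemented medium, received a lipid transfection reagent and siRNA from one supplier, and carried no other modification named in the labels. Total RNA from each sample was labelled from oligo(dT) primers and hybridised to 1 array. BAHD1 is a chromatin protein with a role in heterochromatin and gene silencing, and the comparison asks which transcripts change when it is depleted. The siRNA sequences were not used here, and the labels do not say whether more than 1 BAHD1 siRNA was used, so direct hits of the siRNA on further transcripts cannot be told apart from BAHD1 loss.

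Family members fall into 3 functional classes. The anti-apoptotic proteins MCL1, BCL2 and BCL-XL, the main product of BCL2L1, hold the other classes in check. BAX and BAK1 are the effectors that form pores in the outer mitochondrial membrane. The BH3-only proteins, here BIM (from BCL2L11), BID, PUMA (from BBC3), NOXA (from PMAIP1) and BAD, sense stress and either block the anti-apoptotic proteins or activate the effectors. MCL1 is a short-lived protein, and NOXA binds it preferentially.

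The reference sequences before the starts of the effector genes are shown first, because BAX had a probe set that passed the test and BAK1 did not. Each is the 250 bases before the gene's start in RefSeq (GRCh38.p14), read 5′ to 3′ on the strand of the gene, at chr19:48954625-48954874 on the plus strand for BAX and chr6:33580277-33580526 on the minus strand for BAK1. Capitals mark the motifs found on either strand. The motifs searched were the GC box, spelled GGGCGG, the CCAAT box, the TATA box, spelled TATAAA, the E-box, spelled CACGTG and the same on both strands, and the cyclic AMP response element, spelled TGACGTCA.

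BAX: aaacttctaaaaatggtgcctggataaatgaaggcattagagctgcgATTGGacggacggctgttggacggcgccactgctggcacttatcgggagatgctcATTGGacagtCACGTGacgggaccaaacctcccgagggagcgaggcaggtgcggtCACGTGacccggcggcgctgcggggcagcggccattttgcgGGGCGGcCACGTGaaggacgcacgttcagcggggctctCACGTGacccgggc

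BAK1: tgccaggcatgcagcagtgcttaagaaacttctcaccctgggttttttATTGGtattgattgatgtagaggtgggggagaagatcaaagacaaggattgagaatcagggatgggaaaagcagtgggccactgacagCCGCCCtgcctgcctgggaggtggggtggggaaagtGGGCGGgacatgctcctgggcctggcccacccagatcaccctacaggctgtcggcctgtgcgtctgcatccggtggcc

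The BAX window held 4 E-boxes, 2 CCAAT boxes and 1 GC box, and the BAK1 window 2 GC boxes, 1 CCAAT box and no E-box. An E-box occurred in 6.34% of the 35116 windows of this length in the table, and 4 or more occurred in 5 of them, or 0.0142%. The cut of 4 was taken from the BAX window, which is itself among the 5, so this share is a description only. GC boxes and CCAAT boxes were common, at 42.6% and 32.0% of windows. No motif overlapped another in these windows. Neither window held a TATA box or a cyclic AMP response element, which occurred in 10.7% and 1.65% of windows. No factor's binding was measured, and these matches describe the sequence only. Among the other members, the window of BBC3 and some windows of BID also held an E-box. Of the 10 members, 9 had an entry in the table; MCL1 is named only.

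Signals are linear and scaled so that each array has the same trimmed mean, and fold changes are differences of log2(signal + 1) between group means, BAHD1 siRNA minus control siRNA. The fit was limma with a variance prior that follows the mean signal, called here the intensity-trend fit, with Benjamini-Hochberg adjustment over all 27458 probe sets kept and a threshold of 0.05. "Fell" and "rose" are used only of probe sets past that threshold. With 3 arrays against 3, the smallest exact two-sided permutation p for a single probe set is 0.1. The labels call the replicates biological but do not describe separate cultures. The limma p-values therefore set each difference against the spread between these samples only, as moderated by the variance prior. Levels are not compared between genes, since each probe set has its own response. In bulk RNA, fewer cells of one state and less RNA per cell cannot be told apart.

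The BAHD1 transcript was at 76.0% of its control level (log2 fold change -0.40 ± 0.19 SE, adjusted p = 0.251 in the intensity-trend limma fit), with overlapping groups. Arrays of the same group correlated at r = 0.974 to 0.978 and arrays of different groups at 0.966 to 0.972. The 24 probe sets for poly-A RNAs added before labelling were all higher in the BAHD1 siRNA arrays, with a median log2 difference of 0.58. Of the 18 probe sets for hybridisation controls, which are added after labelling, 1 was higher, with a median log2 difference of -0.12. The part of either in the results was not tested. Of the probe sets in the brightest quartile 42.1% had a higher mean after BAHD1 siRNA, compared with 60.9% in the dimmest one. All 6 genes listed as HEK293 markers were measured, with signals from 24.3 to 3679.3. Of 6 markers of leukocytes, hepatocytes, endothelium, erythroid cells and muscle, 4 were too dim to be kept and none exceeded 32.4. The HEK293 markers KRT8 (26.2 to 40.7) and PAX2 (24.3 to 46.1) had signals on both sides of that level. The summed signal of the markers of other cell types was 51.6 to 72.2 in control and 59.6 to 110.9 in BAHD1 siRNA arrays. That of the HEK293 markers was 4457.9 to 4914.2 in control and 4113.9 to 4399.9 in BAHD1 siRNA arrays, without overlap. Most of that sum was VIM, at 3105.6 to 3679.3 in control and 2652.6 to 2806.4 in BAHD1 siRNA arrays. Of the 6 HEK293 markers VIM fell (limma adjusted p = 0.0318) and the neurofilament genes NEFL and NEFM rose (limma adjusted p = 0.0457 and 0.0473). PAX2 was higher without overlap and not called, and the groups overlapped for KRT8 and KRT18. The part of these markers in the results was not tested.

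Across the family, MCL1 and BAX transcripts were lower in BAHD1 siRNA cells, at 78.5% and 76.6% of control by their called probe sets, and no member rose. Among the 27 probe sets tested 2 were called, both lower, or 7.41%, against 4.45% of all probe sets tested (2.17% higher and 2.28% lower). The 1221 calls behind that share were 596 higher and 625 lower, and with array medians centred, after which the median of all probe sets was -0.13, they were 192 higher and 1515 lower. The groups did not overlap in 9 of the 27 (33.3%), 3 higher and 6 lower, against 25.6% of all probe sets tested (13.4% higher and 12.2% lower). The 9 include BAD 232660_at, kept through the control arrays alone, so a difference was built into its selection. They also include BCL2L1 206665_s_at, kept through the 3 BAHD1 siRNA arrays and 1 control array. By direction alone 12 were higher and 15 lower, and the median log2 fold change was -0.12, against 0.013 over all 27458. The median absolute log2 fold change was 0.27, against 0.17 over all. The called and non-overlapping shares were higher in number than those of all probe sets. They rest on 27 probe sets, several to a gene, and the difference was not tested. These shares are therefore not read as a result about the family. The count of 2 was 1 without control replicate 1 and 0 without control replicate 2 and likewise without replicate 2 or replicate 3 of the BAHD1 siRNA group, fits in which far fewer probe sets were called overall (177 to 295). A limma fit whose variance prior ignores the signal, the single-prior fit, called none of the 27 (smallest adjusted p = 0.150) and none of the 27458 (smallest 0.112). At an unadjusted p under 0.05 it had 8 of the 27 and 17.6% of all, and the intensity-trend fit 10 of the 27 and 20.9% of all.

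**Figure D1:**
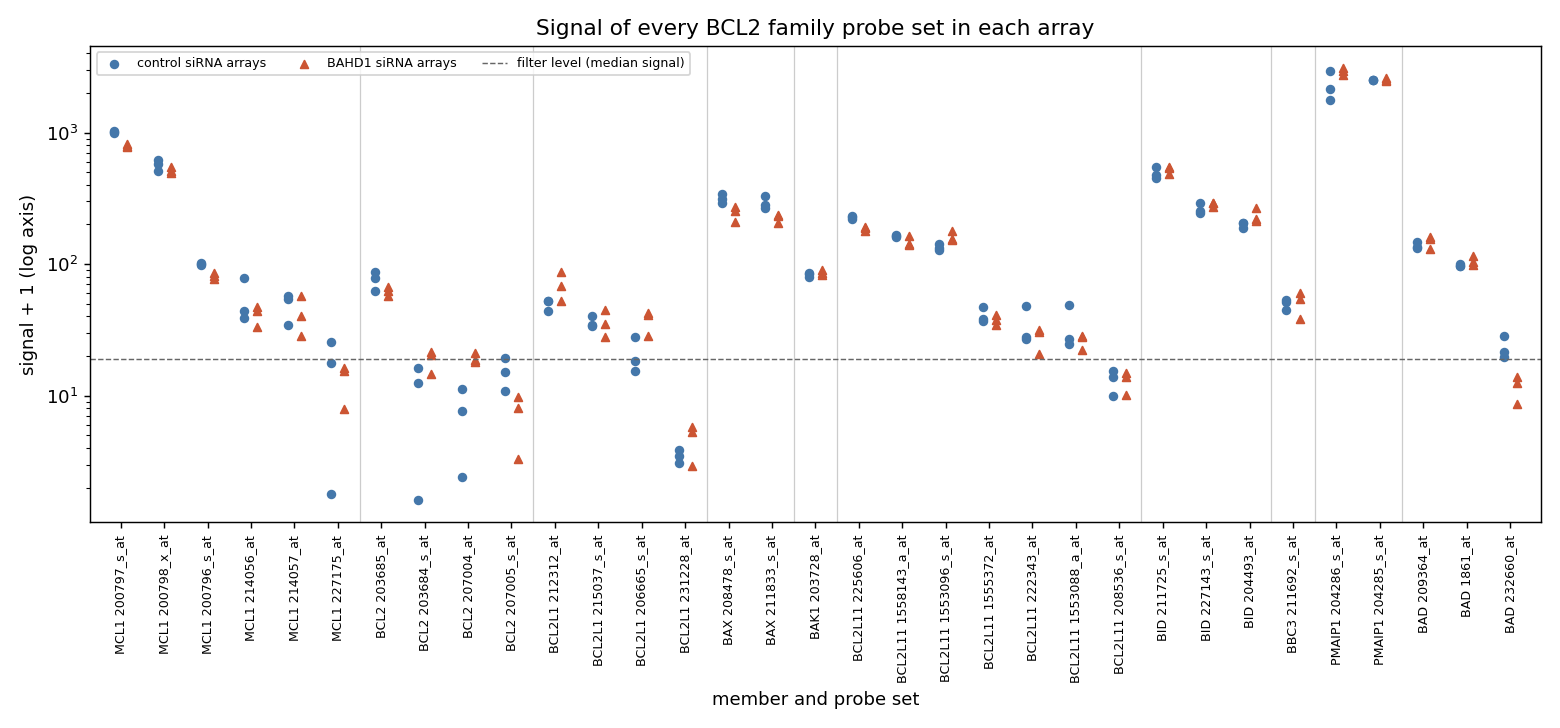
Signal + 1 on a log axis for each of the 33 probe sets of the 10 members, with the 3 control siRNA arrays as circles and the 3 BAHD1 siRNA arrays as triangles; the dashed line is the filter level, a signal of 17.9. MCL1 200797_s_at and both BAX probe sets show all triangles below all circles, and the 6 probe sets that were not kept lie around or under the line.

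MCL1, an anti-apoptotic protein that binds BAK1 and BIM, was read by 6 probe sets. The brightest, 200797_s_at, had signals of 1005.5, 1027.3 and 997.7 after control siRNA and 814.4, 795.5 and 770.2 after BAHD1 siRNA. The lowest control array thus lay well above the highest BAHD1 siRNA array. The control mean was 9.98 ± 0.022 (SD, n = 3) on the log2 scale, and the BAHD1 siRNA mean 9.63 ± 0.040 (SD, n = 3). It fell by 0.35 on the log2 scale to 78.5% of control (SE 0.063, 95% interval -0.48 to -0.21, adjusted p = 0.0132 in the intensity-trend limma fit, exact permutation p = 0.1). The single-prior limma fit gave it an adjusted p of 0.152.

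A second MCL1 probe set, 200796_s_at, separated the groups in the same direction without passing the test. Its signals were 100.9, 97.8 and 99.9 in control arrays and 84.5, 79.7 and 76.4 in BAHD1 siRNA arrays. The log2 fold change was -0.31 with a 95% interval of -0.58 to -0.040 (limma adjusted p = 0.179). In 200798_x_at, a type of probe set that can also match other transcripts, the groups overlapped. Its control signals were 573.4, 505.0 and 614.5 and its BAHD1 siRNA signals 506.5, 543.0 and 490.5, a log2 fold change of -0.13 (limma adjusted p = 0.397). The dimmer 214056_at and 214057_at had log2 fold changes of -0.31 and -0.24, with overlapping groups. Each rested on 1 array, since 214056_at was at -0.0012 without control replicate 3 and 214057_at at 0.013 without BAHD1 siRNA replicate 2. With all arrays the 5 MCL1 probe sets kept were lower on average, from -0.35 to -0.13, and only 200797_s_at passed. The sixth, 227175_at, was under the filter level in 5 of 6 arrays and was not tested.

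The call on MCL1 200797_s_at was kept under the other scalings and lost without some arrays. Its log2 fold change was -0.32 after quantile normalisation of the arrays and -0.49 with array medians centred, which moved all probe sets kept by a median of -0.14. Both kept it past the threshold. The adjusted p was 0.0566, 0.0595 and 0.0619 without control replicate 2, BAHD1 siRNA replicate 2 and BAHD1 siRNA replicate 3, and the size then stayed between -0.35 and -0.33.

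BCL2, the founding anti-apoptotic member, was dim in these cells by 3 of its 4 probe sets. Only 203685_at was kept, with signals of 86.2, 77.0 and 61.4 in control and 61.6, 56.2 and 66.5 in BAHD1 siRNA arrays. The groups overlapped, and the log2 fold change was -0.27 ± 0.16 SE (limma adjusted p = 0.374). Of the dim probe sets, 207004_at read 6.7, 1.4 and 10.2 in control and 20.1, 17.8 and 17.0 in BAHD1 siRNA arrays. In contrast 207005_s_at read 18.2, 14.2 and 9.8 against 2.3, 8.8 and 7.0. These 2 probe sets of BCL2 thus separated the groups in opposite directions at signals around the filter level, where no test was made.

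BCL2L1, whose main product BCL-XL is the other broadly expressed survival protein, had the largest positive value among the 27 probe sets kept, and none of its probe sets passed the threshold. Probe set 206665_s_at read 17.2, 14.4 and 27.0 in control arrays and 27.2, 40.1 and 41.3 in BAHD1 siRNA arrays. The groups were separated by only 0.2 signal units, between control replicate 3 and BAHD1 siRNA replicate 1. Its log2 fold change was 0.88 (95% interval 0.22 to 1.54, limma adjusted p = 0.119), and 0.56 on the log2(signal + 16) scale, which shrinks dim probe sets. It was kept through the 3 BAHD1 siRNA arrays and 1 control array. The brighter 212312_at read 51.2, 51.3 and 43.2 in control and 67.5, 86.4 and 51.0 in BAHD1 siRNA arrays, a log2 fold change of 0.46 (limma adjusted p = 0.208). There replicate 3 of the BAHD1 siRNA group lay within the control range. The third, 215037_s_at, was at -0.039 (95% interval -0.54 to 0.46), so the 3 BCL2L1 probe sets did not give 1 direction.

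**Figure D2:**
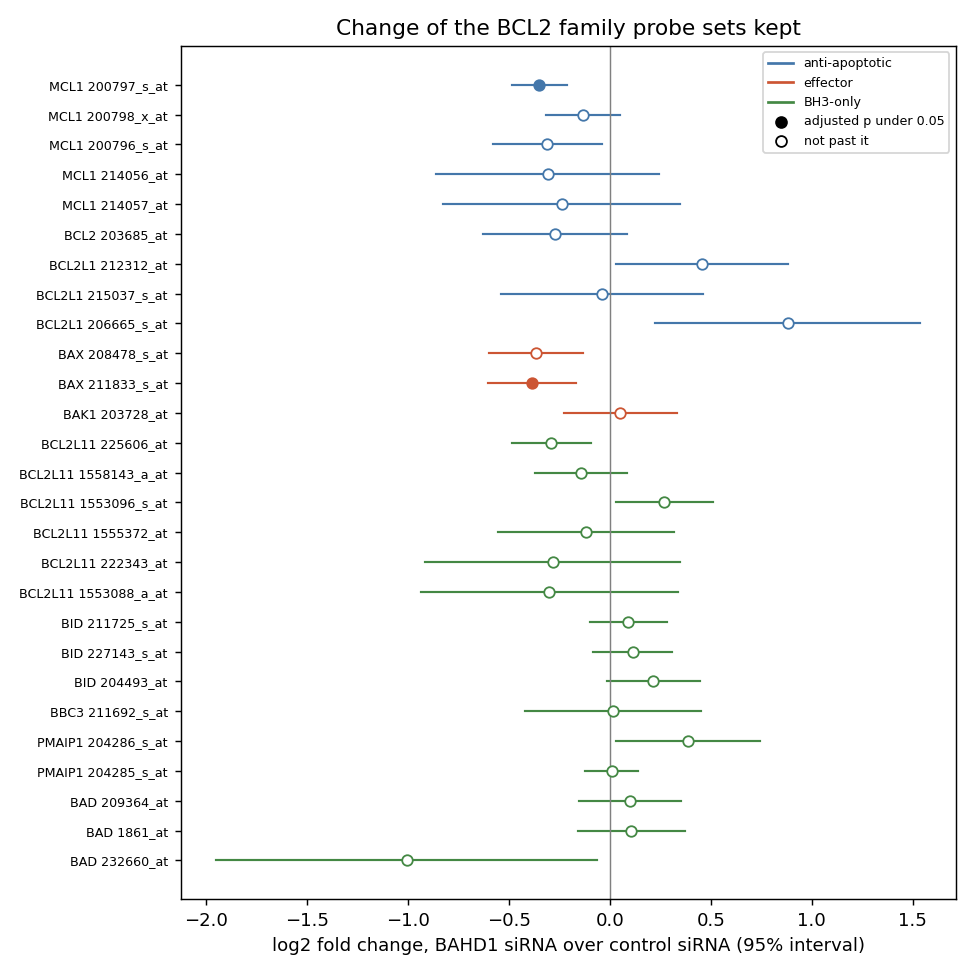
Log2 fold change, BAHD1 siRNA over control siRNA, with its 95% interval for the 27 probe sets kept, coloured by functional class; filled points have a limma adjusted p under 0.05. MCL1 200797_s_at at -0.35 and BAX 211833_s_at at -0.38 are the only filled points, and the BCL2L1 probe sets spread from -0.039 to 0.88.

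The effectors differed in what passed the test. BAX was lower by both of its probe sets, and 1 of them fell. Probe set 211833_s_at read 327.4, 281.5 and 268.2 in control arrays and 231.4, 235.1 and 203.6 in BAHD1 siRNA arrays, with no overlap. It fell by 0.38 on the log2 scale to 76.6% of control (SE 0.10, 95% interval -0.60 to -0.17, adjusted p = 0.0487 in the intensity-trend limma fit, exact permutation p = 0.1). Probe set 208478_s_at read 339.5, 311.1 and 288.2 in control and 272.0, 250.7 and 208.3 in BAHD1 siRNA arrays. Its log2 fold change was almost the same, -0.37, and it did not pass (95% interval -0.60 to -0.13, limma adjusted p = 0.0743).

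BAX lay at the edge of the threshold. The call on 211833_s_at was lost in the single-prior fit (limma adjusted p = 0.194), with no filter on dim probe sets (0.109), with a trend but no robust estimation (0.0507), after quantile normalisation (0.0509) and on leaving out any array except control replicate 3 (0.0639 to 0.185). Over the leave-one-out fits its log2 fold change ran from -0.44 to -0.30, and that of 208478_s_at from -0.45 to -0.26. With the stricter filter both BAX probe sets passed.

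BAK1, the second effector, was read by 1 probe set at 78.4, 84.5 and 83.0 in control arrays and 82.0, 84.7 and 88.6 in BAHD1 siRNA arrays. The groups overlapped, and the log2 fold change of 0.053 had a 95% interval of -0.22 to 0.33 (limma adjusted p = 0.853). A change of BAK1 as large as that of BAX 211833_s_at in the downward direction lay outside this interval. The difference between the genes was not tested.

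**Figure D3:**
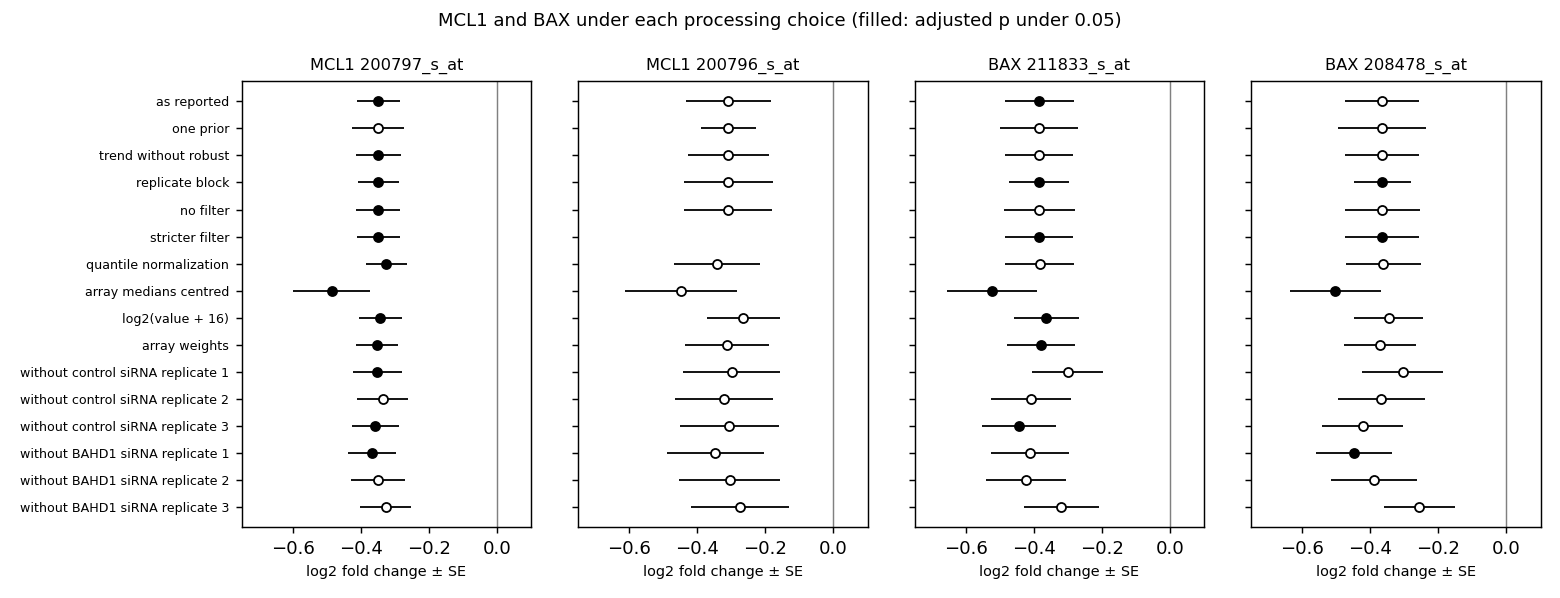
Log2 fold change ± SE of 4 MCL1 and BAX probe sets under each processing choice; filled points have a limma adjusted p under 0.05, and MCL1 200796_s_at has no point under the stricter filter because it was not kept there. All values are below 0, while the filled points come and go, most often for BAX 211833_s_at.

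Among BH3-only genes, none of 15 probe sets was called in the intensity-trend or the single-prior limma fit. Over all 27458 probe sets these fits called 4.45% and 0, so the lack of calls does not set this class apart. By direction alone 9 were higher and 6 lower. BCL2L11, which encodes the activator BIM in several splice forms, was read by 7 probe sets of which 6 were kept. Its probe sets pointed in different directions. Probe set 225606_at, the brightest, read 217.9, 228.8 and 231.3 in control arrays and 176.6, 186.5 and 191.4 in BAHD1 siRNA arrays, a log2 fold change of -0.29 (95% interval -0.49 to -0.092, limma adjusted p = 0.0928). Probe set 1553096_s_at read 127.2, 131.5 and 140.3 in control and 150.9, 178.4 and 153.8 in BAHD1 siRNA arrays, a log2 fold change of 0.27 (95% interval 0.033 to 0.51, limma adjusted p = 0.181). Neither pair of groups overlapped. The log2 difference between these probe sets within an array, 1553096_s_at minus 225606_at, was -0.77, -0.79 and -0.72 in control arrays and -0.23, -0.064 and -0.31 in BAHD1 siRNA arrays. The group means differed by 0.56. The pair was chosen because its members separated the groups in opposite directions, so this is a description and no test was made. The other 4 BCL2L11 probe sets kept had log2 fold changes from -0.30 to -0.12, all with overlapping groups.

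BID, which links death receptors to the mitochondria once cleaved, was slightly higher by all 3 of its probe sets, and none passed. The log2 fold changes were 0.22 for 204493_at, 0.11 for 227143_s_at and 0.093 for 211725_s_at, with limma adjusted p from 0.271 to 0.583. Only in 204493_at did the groups not overlap, with 206.1, 186.6 and 203.5 against 266.3, 217.9 and 211.4. Its value was 0.11 without BAHD1 siRNA replicate 1 and 0.077 with array medians centred. Under that centring, 227143_s_at and 211725_s_at turned to -0.024 and -0.045.

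PMAIP1, which encodes the MCL1 antagonist NOXA, was read by 2 probe sets that behaved differently. Probe set 204285_s_at was nearly constant, at 2497.0, 2527.1 and 2485.6 in control and 2583.4, 2503.8 and 2480.0 in BAHD1 siRNA arrays (log2 fold change 0.011, 95% interval -0.12 to 0.14). Probe set 204286_s_at varied among the controls, at 1752.0, 2142.1 and 2951.4, and read 2727.8, 2934.1 and 3114.1 in BAHD1 siRNA arrays. Control replicate 3 lay within the BAHD1 siRNA range, and the log2 fold change of 0.39 did not pass (95% interval 0.034 to 0.75, limma adjusted p = 0.202). Without control replicate 3 it was 0.59 with a limma adjusted p of 0.00979, and without control replicate 1 it was smaller, the lowest value over the leave-one-out fits being 0.22.

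BBC3, the gene of PUMA, could be read only through the probe set it shares with MIR3190 and MIR3191. Its signals were 43.6, 50.6 and 52.4 in control and 53.2, 37.6 and 59.8 in BAHD1 siRNA arrays, with the BAHD1 siRNA group on both sides of the controls. The log2 fold change was 0.017 (95% interval -0.42 to 0.45), and its sign turned in several alternatives, so it has no direction.

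BAD, which binds BCL-XL and BCL2, gave 2 bright probe sets near their control level and a dim one that was lower. Probe set 209364_at read 146.4, 134.4 and 131.0 against 128.4, 155.4 and 159.7, and 1861_at had a log2 fold change of 0.11, both with overlapping groups. Probe set 232660_at read 20.5, 27.3 and 18.8 in control arrays and 7.7, 12.8 and 11.4 in BAHD1 siRNA arrays, a log2 fold change of -1.01 (95% interval -1.95 to -0.061, limma adjusted p = 0.210). It was kept through the control arrays alone, so a difference was built into its selection, and on the log2(signal + 16) scale it was at -0.52.

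The rest of the pathway was described through 7 lists with 72 genes, each represented by its brightest kept probe set. Of these, 58 were measured, 8 were too dim and 6 were not analysed here. None of the 58 passed in the intensity-trend limma fit (smallest adjusted p = 0.0736) or the single-prior limma fit, against 5.52% of the 12529 genes represented in this way in the intensity-trend fit. At an unadjusted p under 0.05 there were 14 of the 58 in the intensity-trend fit and 8 in the single-prior fit, against 20.9% and 17.6% of all probe sets tested. The groups did not overlap in 16 of the 58 (27.6%), against 25.6% of all probe sets tested, so these counts were near that background. It also holds the dimmer probe sets of each gene, and the same shares over the 12529 genes were not taken. In all 31 were higher and 27 lower, with a median log2 fold change of 0.021, against 0.025 over all 12529 genes.

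Among the other BCL2 family genes 7 of 13 were measured, 4 higher and 3 lower. BNIP3L, a mitophagy receptor, had the smallest p with a log2 fold change of 0.24 ± 0.085 SE (limma adjusted p = 0.121). The anti-apoptotic BCL2L2, named here after its values were seen, was at -0.34 by its brighter probe set and -0.37 by the other (limma adjusted p = 0.184 for the former). BCL2A1, BCL2L10, BCL2L14, BCL2L15, BOK and BIK were too dim to be kept.

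Downstream of the mitochondria, 11 of 13 apoptosome and caspase genes were measured, 6 higher and 5 lower. The lowest p belonged to the initiator caspase gene CASP2, at -0.18 ± 0.075 SE (limma adjusted p = 0.195). CASP2 did not have 1 direction, as its 6 probe sets kept ran from -0.43 to 0.072. Of the inhibitor of apoptosis genes 5 of 6 measured were higher, with BIRC2, an E3 ligase that restrains cell death, at 0.24 ± 0.078 SE (limma adjusted p = 0.0953). Among genes that set the stability of MCL1 protein, 3 were higher and 4 lower, and GSK3B, a kinase that marks MCL1 for degradation, was at -0.18 ± 0.081 SE. The ligase gene HUWE1 and the deubiquitinase gene USP9X, which act on MCL1 in opposite senses, had -0.28 and 0.17, with overlapping groups. Neither gene had 1 direction, as the 3 HUWE1 probe sets kept ran from -0.28 to 0.28 and the 4 of USP9X from -0.12 to 0.17. The HUWE1 value came from 207783_x_at, of the type that can also match other transcripts.

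Of the mitochondrial membrane partners 5 of 9 measured were higher, led by the adenine nucleotide translocase gene SLC25A4 at 0.29 ± 0.086 SE (limma adjusted p = 0.0736). MTCH2, the mitochondrial receptor for cleaved BID, was at -0.058 by its brightest probe set, whereas its other kept probe set, 222403_at, rose by 0.34 (limma adjusted p = 0.0457). That call was lost in the single-prior limma fit (adjusted p = 0.173), with no filter (0.106), with array medians centred (0.352, log2 fold change 0.20) and on leaving out any 1 array (0.0560 to 0.173). This was the only called probe set among all those of the 58 genes. In the death receptor pathway 1 of 6 measured genes was higher and 5 lower, with the adaptor gene FADD at -0.24 ± 0.11 SE. Among transcription factors that act on the family 7 of 12 were higher, with STAT3 at 0.25 ± 0.086 SE and E2F1 at -0.38 ± 0.14 SE, neither past the threshold. Neither had 1 direction, as the lowest STAT3 probe set kept was at -0.072 and the other of E2F1 at 0.0054.

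**Figure D4:**
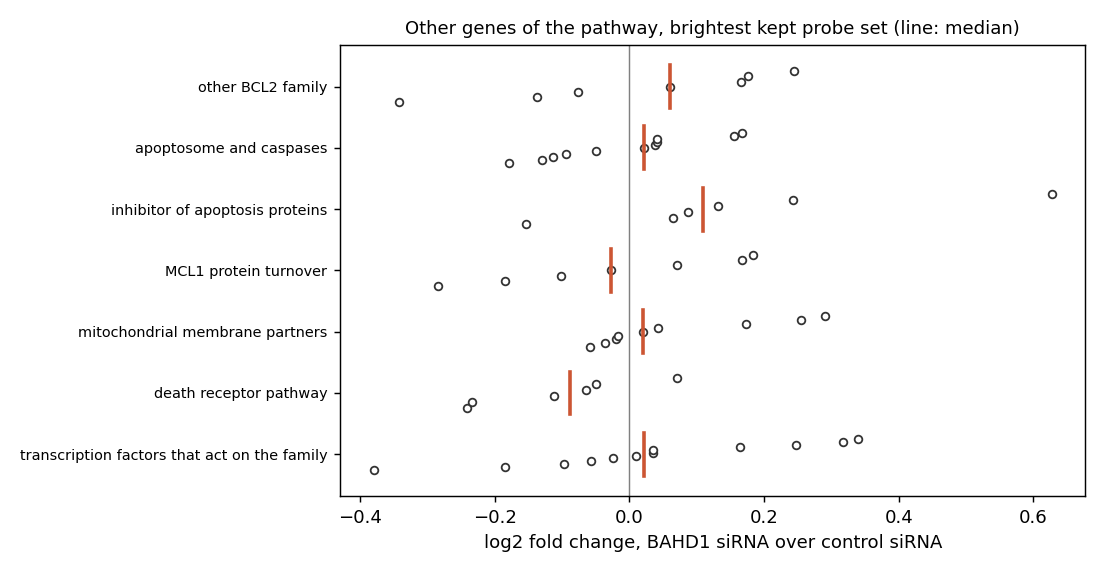
Log2 fold change of the 58 other pathway genes, each by its brightest kept probe set, in 7 lists; the line marks each list's median. No point passed the threshold, and the list medians lie between -0.088 and 0.11.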

How the data were processed

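The deposited values are linear intensities, with 1 for each probe set in each of the 6 arrays. The authors' software is given only as GCOS and GCRMA, without roles, per the submitters' processing notes, and the trimmed mean of every array is 100.01 (without its highest and lowest 2%), which is how GCOS scales arrays. Detection calls were not used here. Samples were grouped by title. The 62 control probe sets were left out, log2(signal + 1) was taken, and a probe set was kept when it exceeded the median signal, 17.9, in at least 3 of 6 arrays (27458 of 54613). All were fitted together in R 4.3.3 with limma 3.58.1 (lmFit, then eBayes with trend and robust). A fit with a single prior was an alternative. Both were run earlier on these data, and the former was preferred here with its calls known. The members and lists were chosen with earlier results of these data known. Named genes were all members, BAHD1, and in each list the called genes or else the one with the smallest p; BCL2L2, HUWE1, USP9X, MTCH2 and E2F1 were added after their values were seen. Code was tested on simulated data. The number of arrays limits the precision, and the labels give no batch. Alternatives were other priors, filters, scalings, pseudocounts, array weights, a replicate block and leaving out each array.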

Additional observations from a re-analysis of the deposited data

How the results depend on the processing

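The number of member probe sets called, 2, became 0 in the single-prior fit, 1 with a trend but no robust estimation, 1 without a filter, 1 after quantile normalisation, 4 with array medians centred and 4 with the replicate block, and ran from 0 to 3 with 1 array left out. The replicate block added BAX 208478_s_at and PMAIP1 204286_s_at to the calls and raised the count over all probe sets to 1629. Deviations from the group means correlated at 0.010 to 0.024 between arrays with the same replicate number, and 4 of 6 arrays correlated best with their own number. These values do not settle whether the numbers mark pairs. The labels name no pairs, and none were used in the reported fit. The count over all probe sets, 1221, was 0 in the single-prior fit and 398 without a filter, and 177 to 1174 with 1 array left out. The count over the pathway lists, 0, was 1 with the stricter filter (75th percentile), after quantile normalisation, with array medians centred and when each probe set was counted singly. Centring, which moved all probe sets kept by a median of -0.14, turned BAD 1861_at (-0.031) and 209364_at (-0.036), BID 211725_s_at (-0.045) and 227143_s_at (-0.024), BAK1 (-0.084), PMAIP1 204285_s_at (-0.13) and the BBC3 probe set (-0.12). The BBC3 value was also -0.034 after quantile normalisation and -0.037 with array weights. With 1 array left out the sign turned for BBC3 (-0.12 to 0.21), BCL2L11 1553088_a_at (-0.48 to 0.0043), PMAIP1 204285_s_at (-0.0065 to 0.023), BCL2L1 215037_s_at (-0.21 to 0.13) and MCL1 214057_at (-0.49 to 0.013). None of these values passed the threshold, and apart from the choices named the cause was not tested. Signals near the filter level limit what can be said of BCL2, BCL2L1 206665_s_at and BAD 232660_at.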
